A study of Saccharomyces cerevisiae with 4 samples.

Results

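Ribosomes held on their messages with cycloheximide were marked with biotin next to Om45, a protein of the mitochondrial outer membrane, and the messages they carried were compared with those of all ribosomes in budding yeast of the same strain and treatment. Genes were taken if they are encoded in the nucleus and held at least 100 footprint reads over the input and the pulldown library together, which left 5464 of the 6692 listed genes. Of the others, 28 are encoded by the mitochondrial genome and 1200 fell under the minimum, 365 of these with 0 reads in both libraries. The 10 genes just inside the minimum held 101 to 110 reads and stood at -0.64 to 0.20 on the log2 scale defined below, and the 10 just outside held 93 to 99 reads and stood at -0.65 to 0.87.

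The study asked which proteins are made at the mitochondrial surface. All libraries came from 1 Saccharomyces cerevisiae strain of S288C background, grown in synthetic medium with 0.125 ng/ml biotin. At the OM45 locus the strain carried the fusion OM45-mVenus-BirA with a HIS5 marker, so the biotin ligase BirA was joined to Om45 through the fluorescent protein mVenus. Both genes for ribosomal protein Rpl16 were replaced by tagged forms, RPL16a-HA-TEV-AVI and RPL16b-HA-TEV-AVI, whose AVI peptide is the substrate of BirA. The remaining alleles were ura3Δ0, met15Δ0 and his3Δ1. The labels also list leu2::pPGK1-BirA::LEU2, a BirA gene under the PGK1 promoter with no mitochondrial anchor named, and this allele is given for all libraries alike. Cells received 100 µg/ml cycloheximide for 2 min and then 10 nM biotin for 2 min. Footprints were made with RNase I, and monosomes were bound to streptavidin for the pulldown or kept whole as the input. The labels do not say whether an input and its pulldown came from the same culture. A second input and pulldown were made with the same biotin pulse and no cycloheximide. Each of these 4 groups held 1 library, so no value has a replicate check, and no p-value is given.

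Most mitochondrial proteins are encoded in the nucleus and enter the organelle through the TOM complex of the outer membrane. Proteins of the matrix and many of the inner membrane carry an N-terminal presequence that import receptors recognise, while metabolite carriers, small intermembrane space proteins and many outer membrane proteins carry internal or C-terminal signals. Cycloheximide blocks elongation, so a ribosome that has exposed part of its chain stays on its message during the biotin pulse.

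The input held 22528297 reads in listed genes and the pulldown 37467060. Each library was scaled to its nuclear reads, and a gene's enrichment is the log2 ratio of pulldown to input, relative to the median gene, which itself stood at -0.73 on library totals. The interval from counting error reached 0.10 to either side for the median gene. Quartiles of all genes lay at -0.19 and 0.25, the 1st percentile at -0.71 and the 99th percentile at 3.75, so the distribution had a long upper arm. Called enriched here were the 682 of 5464 genes (12.5%) that exceeded the median gene 2-fold or more, and 649 of these also had the lower bound of their interval past 2-fold. At least 4-fold above it were 453 genes (8.29%), and at least 8-fold above it 215 (3.93%). At least 2-fold below it were 11 genes (0.201%). The median enriched gene stood 5.44-fold above the median gene. Every share given below for a class of genes is to be read against the 12.5% of all genes.

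The authors' table sorts genes by evidence of a mitochondrial location. Of 577 measured genes in MITOP2, a reference set of mitochondrial proteins, 365 were enriched (63.3%), with a median of 2.19 and quartiles at 0.32 and 3.12. Of 521 genes outside MITOP2 with mitochondrial Gene Ontology evidence, 124 were enriched (23.8%), with a median of 0.08. Of the 4366 genes with neither, 193 were enriched (4.42%), with a median of -0.04. MITOP2 genes therefore made up 53.5% of the enriched genes, and 212 of them were not enriched.

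Compartments inside the mitochondrion differed in level. Among 191 matrix proteins 134 were enriched (70.2%, median 2.63), and among 155 inner membrane proteins 106 were (68.4%, median 2.36). Among 26 outer membrane proteins 12 were enriched (46.2%, median 0.47), and among 25 proteins of the intermembrane space 7 were (28.0%, median 0.31). MITOP2 genes with no subcompartment named stood with the matrix, at 89 of 126 (70.6%, median 2.40), and those with an empty entry stood lower, at 17 of 54 (31.5%, median 0.30). In every class the values were spread from near or below the median gene to about 4 or more, so the classes overlapped.

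**Figure D1:**
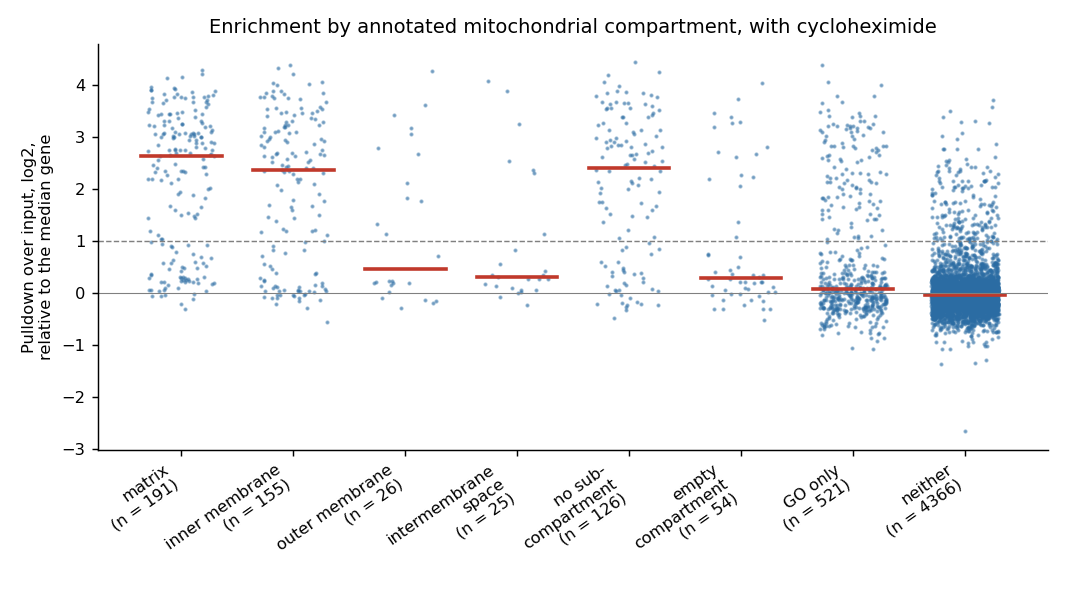
Each point is 1 gene, placed by its pulldown over input ratio with cycloheximide (vertical axis, log2, relative to the median gene) and its annotated class (horizontal axis, number of genes in brackets, sideways spread for legibility only). Red bars are class medians, at 2.63 for the matrix and -0.04 for genes with no mitochondrial evidence, and the dashed line marks 2-fold; the outer membrane and intermembrane space hold 1 group of genes near 0 and another above 2-fold.

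In the matrix the highest gene was TUF1 (YOR187W, chrXV:684030-685343 in R64), the mitochondrial elongation factor Tu, with 8615 input and 168211 pulldown reads and an enrichment of 4.28 (95% interval 4.25 to 4.31). ARG7 of ornithine synthesis followed at 4.20, the cysteine desulfurase gene NFS1 at 4.16 and the ribosomal protein gene RML2 at 4.13. The lowest were POP1, which encodes a subunit of RNase P and RNase MRP, at -0.31, the helicase gene HMI1 at -0.21 and MRPL27 of the mitochondrial ribosome at -0.11. RML2 is labelled cytoplasm and nucleus in the GFP data and POP1 is labelled matrix in MITOP2, so individual labels and enrichment did not always match.

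In the inner membrane DLD1 (YDL174C, chrIV:145826-147589), a D-lactate dehydrogenase gene, held 6208 input and 129096 pulldown reads and stood at 4.37 (4.33 to 4.41). The protease genes YME1 and YTA12 stood at 4.31 and 4.04, and ATP2, the beta subunit of ATP synthase, at 4.20. The lowest were the transporter-like gene ESBP6 at -0.55, the cytochrome oxidase subunit gene COX7 at -0.28 and the assembly factor gene COX16 at -0.21. COX7 and COX16 encode proteins of 60 and 118 amino acids.

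The intermembrane space was divided in the same manner. MIA40, the import oxidoreductase, held 4876 input and 82032 pulldown reads and stood at 4.06 (4.02 to 4.11). Cytochrome c peroxidase CCP1 stood at 3.88, the cytochrome b5 reductase MCR1 at 3.25 and the lactate dehydrogenase CYB2 at 2.53. Cytochrome c itself did not stand out, with CYC1 at 2187 and 2192 reads and an enrichment of 0.00 (-0.09 to 0.08), and CYC7 at -0.23. ERV1, the sulfhydryl oxidase that works with Mia40, stood at -0.08 (-0.18 to 0.03). None of 12 small TIM chaperones and CX9C proteins was enriched, and their values ran from -0.19 for MIC14 to 0.36 for TIM12, with a median of 0.17. These 12 proteins are short, at 69 to 156 amino acids. Of all MITOP2 genes under 200 amino acids, 20 of 133 were enriched (15.0%).

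Outer membrane proteins were listed by their membrane anchor where it is well known, and these lists hold 17 genes, 14 of them in the outer membrane class of MITOP2. All 6 listed proteins held by an N-terminal segment were enriched, with a median of 3.33. The bait OM45 (YIL136W, chrIX:93619-94800) held 1579 input and 30537 pulldown reads and stood at 4.27 (4.19 to 4.34). The import receptor TOM70 stood at 3.61, its paralog TOM71 at 3.41, MCR1 at 3.25, the receptor TOM20 at 2.78 and the ATPase MSP1 at 1.82. All 5 beta barrel proteins were enriched as well, from the porin POR1 at 1.33 through POR2 at 1.77, SAM50 at 2.64 and MDM10 at 2.67 to the channel TOM40 at 3.17 (8809 input and 79943 pulldown reads). None of 6 tail-anchored proteins was enriched, and their median was 0.10. The small TOM subunits TOM5, TOM6 and TOM7 stood at 0.19, 0.23 and -0.28, the receptor TOM22 at 0.02, the fission adaptor FIS1 at 0.22 and the GTPase GEM1 at -0.22. The lowest values of the N-anchored and barrel lists, 1.82 and 1.33, lay above the highest tail-anchored value, 0.23. Anchor type and length largely went together in these lists. The median length was 106.5 amino acids for the tail-anchored list, 377.5 for the N-anchored list and 387 for the barrels. GEM1 encodes 662 amino acids and TOM20 encodes 183, so these 2 genes do not follow the relation with length given next. Whether anchor or length goes with enrichment here was not tested. The lists leave out 12 genes of the class, of which 3 were enriched. These were the fission adaptor gene MDV1 at 3.05, MDM34 of the ER contact site at 2.11 and the fusion factor gene UGO1 at 1.13. The rest ran from 0.70 for FZO1 (855 amino acids) to -0.19 for MDM12 (271). Among them were DNM1 (757) at 0.16, YAT1 (687) at 0.19 and MMM1 (426) at -0.10. The lists were chosen with earlier results of these data known and do not stand for the whole class.

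Protein length separated enriched from other genes among proteins with a strong presequence prediction. MitoProt gives each protein a score from 0 to 1 for a mitochondrial presequence. Of MITOP2 genes with a score of at least 0.9, 14 of 53 under 200 amino acids were enriched (26.4%, median 0.51), against 201 of 208 at or above that length (96.6%, median 3.11). At least 8-fold enriched were 0 of the short and 117 of the long genes. In finer steps the count was 0 of 8 under 100 amino acids, 2 of 16 from 100 to under 150, 5 of 16 from 150 to under 175, 7 of 13 from 175 to under 200, 16 of 16 from 200 to under 250, and 20 of 21 from 250 to under 300. Beyond that the share stayed at or above 92.0%, and the median went from 2.93 at 300 to under 400 amino acids to 3.64 at 700 to under 1000 and was 3.06 in the 7 genes of 1000 or more.

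Median read depth per gene was alike on both sides of that step. The short genes held 233 to 19902 input reads with a median of 2016, and the long ones 76 to 265094 with a median of 1838. The median interval reached 0.08 to either side for the short genes and 0.07 for the long ones. Across the 261 genes together Spearman's rho of enrichment was 0.55 with length, 0.08 with the score itself and -0.21 with input reads per codon. These genes were chosen for a score of at least 0.9, so the score could vary little among them. Over all 577 MITOP2 genes rho was 0.43 with length and 0.46 with the score. These correlations run across genes of 1 pair of libraries, and genes are not independent replicates.

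**Figure D2:**
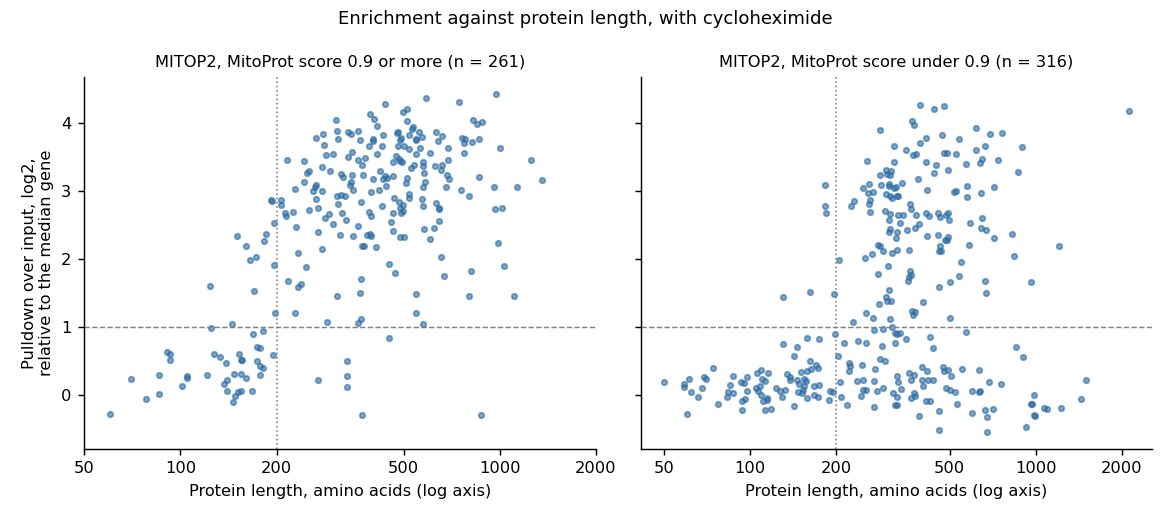
Each point is 1 MITOP2 gene, placed by protein length (horizontal axis, amino acids, log axis) and by its pulldown over input ratio (vertical axis, log2, relative to the median gene), for MitoProt scores of at least 0.9 on the left and under 0.9 on the right. The dotted line stands at 200 amino acids and the dashed line at 2-fold; on the left 201 of 208 genes right of the dotted line and 14 of 53 left of it lie above 2-fold, and on the right 144 of 236 and 6 of 80.

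The short genes near the median gene included structural subunits of the respiratory chain. COX8 stood at -0.07 with 3592 input and 3440 pulldown reads, COX6 at -0.02 and COX4 at 0.51, and ATP16 of the ATP synthase at 0.24. MRPL39 of the mitochondrial ribosome, with 70 amino acids, stood at 0.23. Among the short genes that were enriched, ATP14 of the ATP synthase (124 amino acids) stood at 1.60, MMF1 (145) at 1.04 and the glutaredoxin gene GRX5 (150) at 2.34, with 3459 input and 17623 pulldown reads. The iron-sulfur scaffold ISU1 (165) stood at 1.99, MRPL49 (161) at 2.19, ABF2, which packages mitochondrial DNA (183), at 2.26, and MNP1 (194) and the translocase subunit TIM18 (192) at 2.85 and 2.87.

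All 7 long genes that were not enriched despite a high score can be named. Of these, 3 are the glyceraldehyde-3-phosphate dehydrogenases TDH3, TDH1 and TDH2 of glycolysis, at 0.12, 0.28 and 0.49, which the GFP data place in cytoplasm and nucleus. Their sequences are close to each other, so reads may be divided among them. The kinase-like gene FMP48 stood at -0.30, POP1 at -0.31, the protease gene ATP23 at 0.22 and the aspartate aminotransferase gene AAT1 at 0.83.

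The same division by length appeared in MITOP2 genes with lower scores, at 6 of 80 short genes against 144 of 236 long ones (7.50% and 61.0%), and at 0 of 31 against 50 of 112 with scores under 0.2. It appeared within compartments, at 10 of 55 against 124 of 136 in the matrix, 3 of 40 against 103 of 115 in the inner membrane, 1 of 15 against 6 of 10 in the intermembrane space and 1 of 7 against 11 of 19 in the outer membrane. Genes whose GFP fusion was seen only in mitochondria, a label that uses neither MITOP2 nor MitoProt, gave 15 of 67 short and 182 of 197 long genes. Of these 264 genes 202 are also in MITOP2, so most were counted above already, in the same pair of libraries. Among genes with no mitochondrial evidence the enriched share had no step at 200 amino acids. It was 2.41% under 100 amino acids, 1.42% from 150 to under 200 and 2.40% from 200 to under 300. In longer proteins it was higher, at 4.84% from 300 to under 400, 6.46% from 400 to under 500 and 6.94% of the 360 genes of 1000 or more. The median of genes with no mitochondrial evidence went the other way, from 0.01 under 100 amino acids to -0.29 at 1000 or more. The longest of the named low genes was MDN1 (4910 amino acids), an ATPase of ribosome assembly with Gene Ontology evidence only, at 4065 input and 1935 pulldown reads and a value of -1.08. The translation factor gene FUN12 stood at -1.05, and without evidence of either kind the proteasome-associated ECM29 stood at -0.94 and the ubiquitin ligase TOM1 at -0.92.

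The share of enriched genes went up with the presequence score over all genes, from 5.28% of 2593 genes with scores under 0.1 through 10.3% of 506 from 0.3 to under 0.5 and 23.9% of 352 from 0.7 to under 0.9 to 63.6% of 228 at 0.98 or more. Within annotation classes the relation was not the same in kind. MITOP2 genes went from 32.7% in the lowest bin to 81.5% in the highest, and Gene Ontology-only genes from 8.18% to 74.1%. Genes with neither lay between 3.75% and 10.6% in all bins. With a score of at least 0.9, 15 of 173 were enriched (8.67%), against 4.42% of all genes with neither and 12.5% of the whole table. These were 13 of 123 from 0.9 to under 0.98 (10.6%) and 2 of 50 at 0.98 or more (4.00%), so the top bin was not raised.

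**Figure D3:**
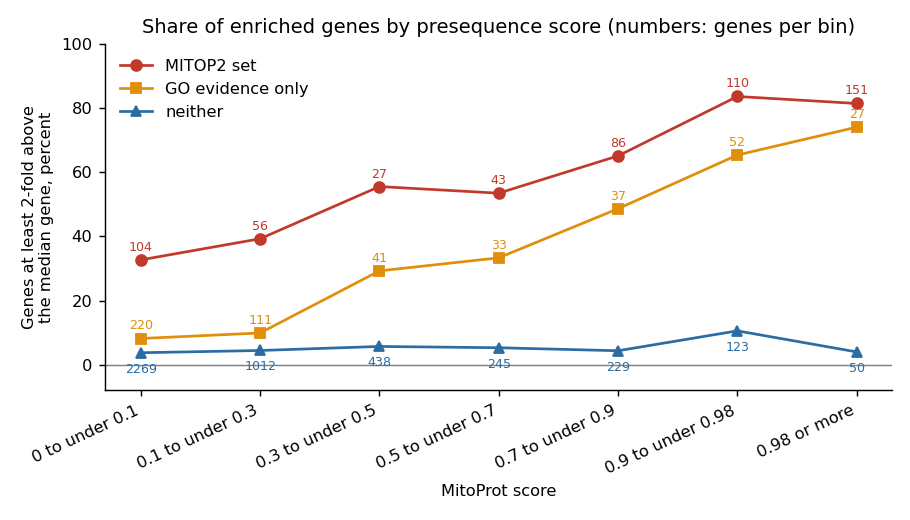
Share of enriched genes, those past 2-fold (vertical axis, percent) by MitoProt score bin (horizontal axis), for MITOP2 genes (red circles), genes with Gene Ontology evidence only (orange squares) and genes with neither (blue triangles); numbers beside the points count the genes. The red and orange lines end at 81.5% and 74.1%, and the blue line stays at or below 10.6%.

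A low score did not keep annotated genes from high enrichment. PUS2 (YGL063W, chrVII:383654-384766), a tRNA pseudouridine synthase gene with a score of 0.0049, held 111 input and 1832 pulldown reads and stood at 4.03 (3.76 to 4.33). LEU4, an isopropylmalate synthase gene with a score of 0.0892, held 37155 and 567321 reads and stood at 3.93 (3.91 to 3.94). MMR1, needed for mitochondrial inheritance by the bud, stood at 3.56 and the arabinono-lactone oxidase gene ALO1 at 3.54. The metabolite carriers of the inner membrane, which have no cleaved presequence in most cases, were enriched in 23 of 29, with a median of 2.19 and a median score of 0.0837. The ADP/ATP carrier PET9 stood at 3.67 (18564 input and 236915 pulldown reads), the GTP/GDP carrier GGC1 at 3.31 and the phosphate carrier MIR1 at 3.29. The 6 carriers under 2-fold were SAL1 at 0.36, AGC1 at 0.56, SFC1 at 0.76, YEA6 at 0.91, ORT1 at 0.97 and MRS3 at 0.996, the last 4 with intervals that reach past 2-fold.

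Locations seen with GFP give a grouping that does not use sequence prediction. Of 264 genes seen only in mitochondria, 197 were enriched (74.6%, median 2.56), and of 29 seen in mitochondria and elsewhere, 20 were (69.0%, median 1.86). Other locations stood near the median gene. Enriched were 29 of 461 cytoplasmic genes (6.29%, median -0.03), 17 of 492 seen in cytoplasm and nucleus (3.46%), 11 of 273 nuclear genes (4.03%) and 4 of 161 genes of the endoplasmic reticulum (2.48%, median -0.11). Of 63 vacuolar and 23 late Golgi genes 0 were enriched. The nuclear periphery had the largest share outside mitochondria among the plotted classes, 4 of 30 (13.3%), close to the 12.5% of all genes. Genes with no GFP label, 3116 in all, were enriched in 380 cases (12.2%).

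**Figure D4:**
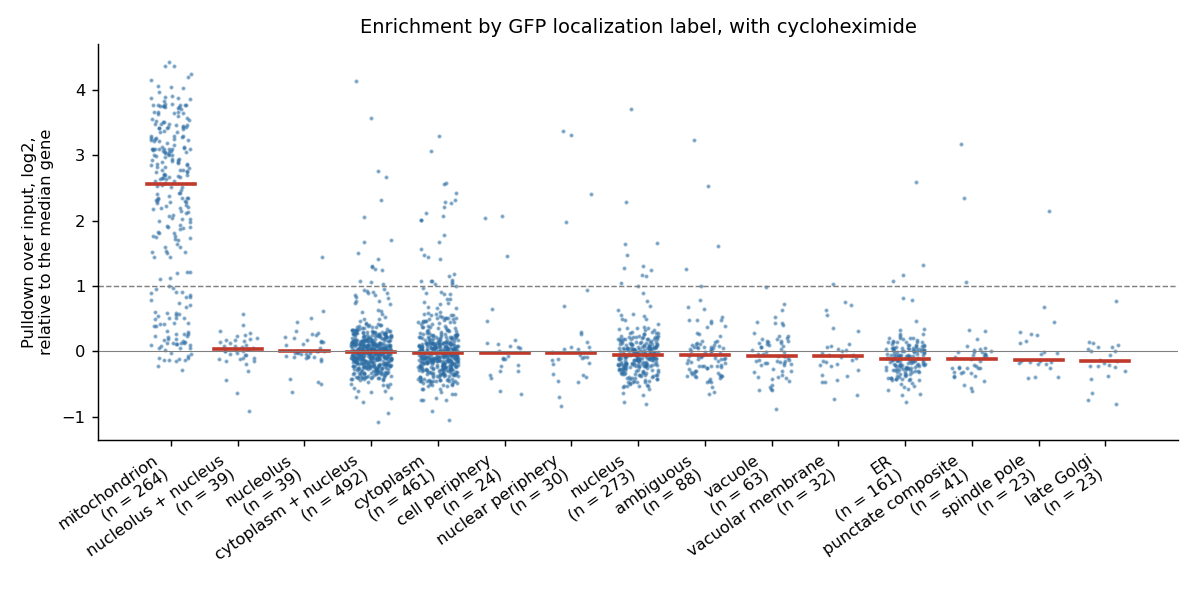
Each point is 1 gene, placed by its GFP localization label (horizontal axis, classes of at least 20 genes, number in brackets, sideways spread for legibility only) and by its pulldown over input ratio with cycloheximide (vertical axis, log2, relative to the median gene). Red bars are class medians, at 2.56 for the mitochondrion and between -0.15 and 0.04 for the other 14 classes, and the dashed line marks 2-fold.

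Lists of other membranes also had medians near the median gene, and 2 of them held enriched members at shares near the 12.5% of all genes. None of 16 genes of the endoplasmic reticulum and secretory pathway was enriched, with values from -0.20 for the translocon subunit gene SEC63 to 0.41 for the disulfide isomerase gene PDI1. Of 260 genes with a predicted ER signal sequence 17 were enriched (6.54%). Of 13 peroxisomal genes 2 were enriched (15.4%). They were the carnitine acetyltransferase CAT2 at 2.42, which also has a mitochondrial form, and the acyl-CoA oxidase POX1 at 1.16. Among 17 nucleoporins 3 were enriched (17.6%), NUP100 at 3.31, NUP170 at 2.41 and NUP145 at 1.97. The list's median was -0.13 and its lowest member, NUP192, stood at -0.83.

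Enzymes with a mitochondrial form and a related form elsewhere allow a comparison within a protein family. In 44 pairs, which hold 41 mitochondrial genes, the mitochondrial member was higher in 43, with intervals apart in all 43, by a median difference of 3.29. Enriched were 38 of 41 mitochondrial members (median 3.38) and 4 of 44 other members (median 0.09). The citrate synthases gave 22420 input and 327914 pulldown reads for mitochondrial CIT1, at 3.86, and 63952 and 68508 for peroxisomal CIT2, at 0.09. The aldehyde dehydrogenases ALD4 and ALD6 stood at 3.83 and 0.06, though MITOP2 lists both as mitochondrial. The largest difference, 4.81, was that of TUF1 over TEF1, the cytosolic elongation factor 1 alpha, at -0.53. TEF1 shares its coding sequence with TEF2, so the division of its reads is uncertain.

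Aminoacyl-tRNA synthetases, of which yeast makes separate mitochondrial and cytosolic forms for many amino acids, had the mitochondrial gene higher in 14 of 14 pairs. The differences ran from 1.17 for the leucyl enzymes NAM2 and CDC60 to 3.88 for the phenylalanyl enzymes MSF1 and FRS2. CDC60 was itself enriched, at 13804 input and 77140 pulldown reads and 2.48 (2.45 to 2.50), and ILS1, the cytosolic isoleucyl enzyme, stood at 1.08. The other enriched partners were peroxisomal isocitrate dehydrogenase IDP3 at 2.12 and AAT2 at 1.16. The pair AAT1 and AAT2 was the single one in reverse order, at 0.83 and 1.16. The cyclophilin CPR3 (182 amino acids) exceeded CPR1 by 0.64 and the thioredoxin TRX3 (127) exceeded TRX1 by 0.51, and these were the only mitochondrial members under 200 amino acids.

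**Figure D5:**
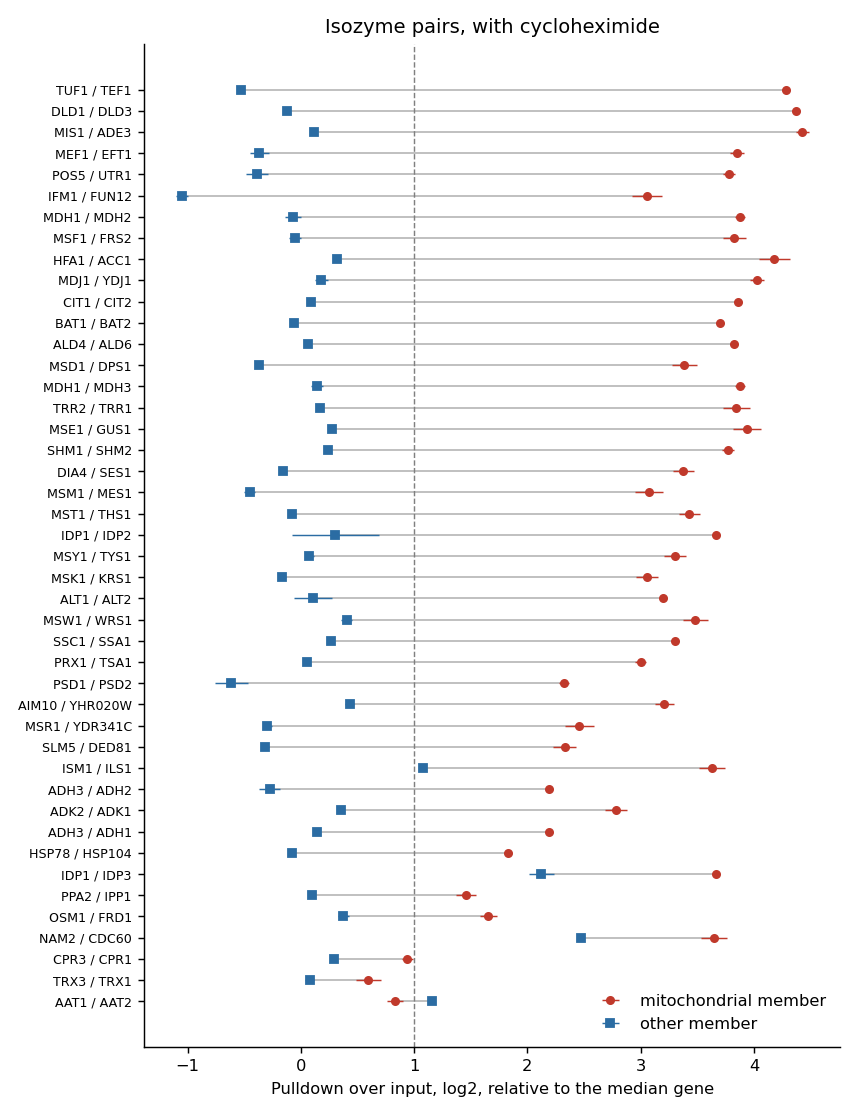
Each line is 1 isozyme pair, with the mitochondrial member as a red circle and the other member as a blue square, placed by the pulldown over input ratio (horizontal axis, log2, relative to the median gene; error bars are 95% intervals of counting error); the dashed line marks 2-fold. The red circle lies to the right in 43 of 44 pairs, and AAT1 and AAT2 are the exception.

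The table also names paralogs kept from the ancestral genome duplication, a set not chosen for location. Of 520 such pairs with both members measured, 22 had both enriched, 59 had 1 enriched and 439 had none, and the median difference was 0.21. These are counts of pairs, and the share of single members was not set against the 12.5% of all genes. In the 59 pairs with 1 enriched member, that member was in MITOP2 in 20, had Gene Ontology evidence only in 9 and had neither in 30, and it had the higher MitoProt score in 44. Of all 682 enriched genes, 365 were in MITOP2, 124 had Gene Ontology evidence only and 193 had neither. At least 8-fold apart were 9 pairs, among them PUS2 over PUS1 (4.03 and 0.09) and the acetyl-CoA carboxylases HFA1 over ACC1 (4.18 and 0.32). Others were BAT1 over BAT2 of branched-chain amino acid metabolism (3.70 and -0.06) and ALT1 over ALT2, the alanine transaminases (3.20 and 0.11).

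The 193 enriched genes without mitochondrial evidence had a median of 1.57. Of these, 128 have no GFP label (66.3%) and 120 have a MitoProt score under 0.2 (62.2%). Listed reading frames that the RefSeq table does not hold number 6 (3.11%), and without coordinates their overlap with other genes was not checked. Among the 4173 genes of this class that were not enriched, the shares were close, at 57.8%, 68.0% and 2.04%. ASH1 (YKL185W, chrXI:94499-96265), a repressor of mating-type switching whose message is known to move to the bud, was the highest at 3.70 (3.67 to 3.74), with 6255 input and 81831 pulldown reads. The DNA repair nuclease gene RAD2 followed at 3.58, the phosphatidate phosphatase gene APP1 at 3.50, the silencing factor gene SIR4 at 3.37 and NUP100 at 3.31. Others among the 20 highest were YNL295W at 3.28, with a MitoProt score of 0.9942, PAN5 of pantothenate synthesis at 3.25, AIM39 at 3.07, the DNA primase subunit gene PRI1 at 3.01 and the haem-responsive transcription factor gene HAP1 at 2.77. With Gene Ontology evidence only, PUF3, an RNA-binding protein of messages for mitochondrial proteins, stood at 3.30 and the cystathionine synthase gene CYS4 at 2.56.

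The authors' deposited table marks 404 of the measured genes as enriched with cycloheximide by a threshold from a ROC curve, 292 of them in MITOP2, 72 with Gene Ontology evidence only and 40 with neither. The lowest gene so marked had a log2 enrichment of 1.58 in the authors' deposited table, which is 2.19 relative to the median gene here, and of the other genes past 2-fold here 265 were marked as not enriched and 13 had no call. The marked set is therefore smaller and stricter than the 682 genes at 2-fold.

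Without cycloheximide 329 of 5148 genes were enriched (6.39%), from separate input and pulldown libraries of 18172572 and 15705022 reads. Of the 668 genes enriched with cycloheximide that had a value without it, 303 were enriched there too (45.4%). The medians without the drug were 0.40 for the matrix, 0.86 for the inner membrane, 0.25 for the outer membrane and 0.19 for the intermembrane space. Among MITOP2 genes with scores of at least 0.9, 1 of 52 short and 111 of 207 long genes were enriched without the drug. Single genes kept very different parts of their enrichment. MIS1, the one-carbon enzyme with the highest value with the drug at 4.43, stood at 3.005 without it, ASH1 at 2.48 and OM45 at 2.26. ATP2 stood at 1.03 without the drug, ALD4 at 0.44, BAT1 at 0.24 and CIT1 at 0.18. The inputs also differed, and ADH4, at 4.37 with the drug, held 245 reads in that input and 20468 in the input without the drug, where it stood at 0.45. The difference between the conditions has no replicates and was not tested.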

How the data were processed

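The deposited counts are reads mapped to each gene, not normalized, per the file headers, and the deposited log2 enrichment is that of pulldown RPKM over input RPKM. The table also gives a MitoProt prediction score, deposited as a fraction from 0 to 1, the protein length, and annotation. Per the submitters' processing notes, CASAVA and build sacCer3 were used. Not given in the sources used here are the aligner and the treatment of multiply mapped reads. Coordinates and names come from the RefSeq table of R64, which held 5373 of the 5464 measured genes. The table's 5 columns of another fusion protein were not used here.

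Counts received a pseudocount of 0.5 reads, each library was scaled to its nuclear reads, and log2 ratios were centred on the median gene. With 1 library a group no test was run. The 95% intervals are exact (Clopper-Pearson), computed for each gene from its counts in the pair of libraries, and cover counting error only, since the labels describe no molecular identifiers and amplified reads are then not separate molecules. Tables were handled in pandas 2.3.3 and numpy 2.4.6 under Python 3.11.15, intervals came from scipy 1.17.1 and plots from matplotlib 3.10.9. TMM factors, used in an alternative, came from edgeR 4.0.16 (R 4.3.3). Counts were also simulated over 5469 genes at the depth of the libraries with cycloheximide. The procedure called 50 of 50 genes set at 4-fold and 0 of 5270 unchanged genes. The intervals held the set value for 95.1% of these unchanged genes and for 91.8% of 49 genes set at 0.5-fold. The simulated counts were drawn with counting error alone. Spread between libraries was not part of the simulation. The 0 of 5270 therefore gives no rate of false calls for the real libraries.

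Named genes are the 4 highest and 3 lowest of each class of compartment, score, length or GFP label, the 20 highest overall and without annotation, the 10 lowest annotated with a score of at least 0.9 and 300 or more amino acids, the 10 highest annotated with a score under 0.2, the genes next to the read minimum, all members of the lists and pairs, and OM45, RPL16A and RPL16B. This rule gave 406 genes, of which some are printed. The short enriched genes with high scores, the long ones under 2-fold, the outer membrane genes on no anchor list and the duplication paralogs were named or counted after their values were seen. The genes, lists and pairs were chosen with earlier results of these data known. Alternatives were a pseudocount of 1, other read minimums, library totals, TMM and median-of-ratios scaling, folds of 1.5 and 4, the authors' deposited log2 values and a MitoProt threshold of 0.5. N-terminal sequence features were not analysed here.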

Additional observations from a re-analysis of the deposited data

Results flagged for a closer look

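Among the 406 genes of the naming rule, those enriched with cycloheximide were searched for an interval wholly below the median gene without the drug, and SSC1 and YLR294C were found. Genes under 2-fold with the drug were not searched. SSC1, the mitochondrial Hsp70 that drives import into the matrix, stood at 3.30 with cycloheximide (25992 input and 257809 pulldown reads) and at -0.03 without it (52601 and 43427 reads, interval -0.05 to -0.02). YLR294C, a listed reading frame that the RefSeq table does not hold, stood at 2.27 with the drug (193 and 940 reads) and at -0.50 without it (183 and 109 reads, interval -0.86 to -0.15). Its coordinates were not at hand, so whether its reads also belong to an overlapping gene was not tested. Each value rests on 1 pair of libraries, and the difference between the conditions was not tested.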

How the results depend on the processing

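The 682 enriched genes became 453 when 4-fold was asked for. The 193 genes without mitochondrial evidence became 336 with no read minimum, 324 at 1.5-fold, 80 on library totals and 62 at 4-fold. The difference between the medians of the highest and lowest MitoProt bins, 2.40, became 2.24 with a minimum of 20 reads. The other counts moved by less than 1.5 times, with 499 genes in all on library totals and 829 with no minimum, and the class differences, the 43 isozyme pairs (42 at a minimum of 500 reads) and the gap of 70.2 percentage points between long and short presequence proteins (68.6 with scores of at least 0.5) kept their direction under every alternative run. On library totals each class median lies 0.73 lower, which puts the outer membrane at -0.26 and the intermembrane space at -0.41. No paired analysis was possible because each group held 1 library. The comparison of N-terminal sequence features was not run. Of the 124 genes named, all kept their values within counting error with a pseudocount of 1 and with the authors' deposited log2 values, and all lie 0.73 lower on library totals. Depth limits single genes near the read minimum most. Spread between libraries could not be measured.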
